A study of Rattus norvegicus with 25 samples.

Results

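Esophageal epithelium of rats given NMBA with alpha-tocopherol was compared with that of control rats, on 10 of the 25 arrays of the series (5 rats a group), chosen by the array titles. The NMBA+Alpha-T rats received NMBA together with an alpha-tocopherol intervention, the NMBA rats received NMBA with a normal diet, and the Control rats had the normal diet without NMBA. All were male F344 rats, and each array held total RNA of 1 rat labelled with a single dye. The labels give no age, dose, route, diet composition or time from NMBA to collection, and no group had alpha-tocopherol without NMBA. What NMBA did and what alpha-tocopherol did can therefore not be told apart in this comparison alone, and the 5 NMBA rats are given beside it, against the same Control rats.

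NMBA (N-nitrosomethylbenzylamine) is a nitrosamine that cytochrome P450 enzymes of the rat esophagus turn into a DNA-methylating agent, and it is used to induce squamous tumours there. Alpha-tocopherol is the form of vitamin E that the body retains best, a lipid-soluble antioxidant of membranes. The esophageal lining is a stratified squamous epithelium whose basal cells divide and whose upper layers differentiate and are shed.

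The 5 NMBA+Alpha-T arrays lay on slide 1, and the Control arrays on slide 2 (rat 1) and slide 3 (rats 2 to 5), so the groups shared no slide. NMBA rats 1 to 4 shared slide 3 with Control rats 2 to 5. Slide and group cannot be told apart within these 10 arrays. A link exists only through NMBA+Delta-T rats on slides 1 and 2 and Control rat 1 on slide 2, and values with slide as a fixed block rest on it. With that block, a difference is the NMBA+Alpha-T mean minus Control rat 1, less the slide 1 minus slide 2 difference of NMBA+Delta-T rats. Control rats 2 to 5 do not enter its size, so it is no comparison of 5 rats with 5. Between 76.95 and 79.83% of spots were well above background on NMBA+Alpha-T arrays, against 74.43 to 76.11% on Control arrays, with no overlap and no saturated spot; the part of this in the results was not tested. The tissue label was checked by epithelial genes: Krt13, a keratin of the upper esophageal layers, averaged 5.04 in NMBA+Alpha-T and 5.32 in Control rats, and Tp63, the basal epithelial transcription factor, 4.41 in NMBA+Alpha-T and 4.25 in Control rats. Muscle and matrix genes were well above the 75th percentile too: the skeletal myosin gene Myh8 averaged 4.99 in NMBA+Alpha-T and 4.90 in Control rats, muscle creatine kinase, Ckm, 4.40 in NMBA+Alpha-T and 4.55 in Control rats, smooth muscle actin Actg2 4.69 in NMBA+Alpha-T and 5.04 in Control rats, and the collagen gene Col1a2 4.43 in NMBA+Alpha-T and 4.37 in Control rats. The samples labelled as epithelium thus also held RNA of muscle and matrix genes. Levels are log2 signals relative to the 75th percentile of the same array, so 0 marks that percentile, and differences are log2 differences of group means; levels of different probes are not comparable.

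In NMBA+Alpha-T rats 65 genes were higher and 19 lower than in Control rats, of 12343 genes tested with limma at an adjusted p below 0.05. That is 0.681% of genes, 0.527% higher and 0.154% lower, and the median difference over all genes was 0.01. Without adjustment, 1677 genes (13.6%) had a p below 0.05, and 52.1% of all differences were positive. These shares over all genes stand beside the counts of the gene lists below. Of the 84 genes, 36 differed by at least 2-fold (25 higher, 11 lower) and 69 had groups that did not overlap, as did 3.61% of all genes (2.37% higher, 1.23% lower). Against the same Control arrays, the NMBA rats had 168 genes higher and 29 lower (1.6% in all). From the dimmest to the brightest 20% of genes by mean signal, 20, 19, 14, 11 and 1 were called higher and 2, 8, 6, 3 and 0 lower. In the plot of difference against level, Gip stands above the other called genes.

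**Figure D1:**
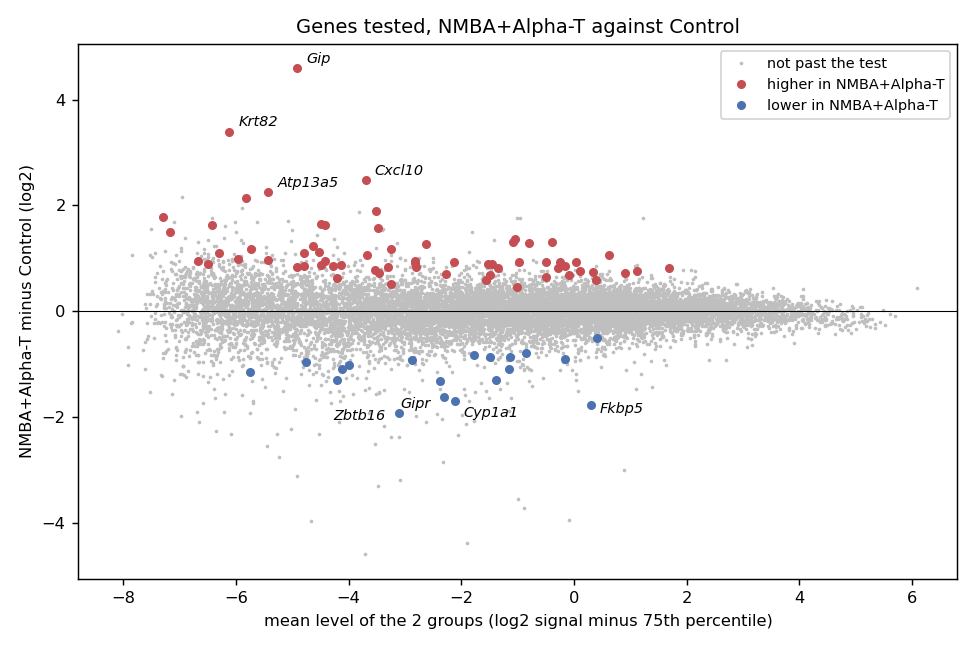
Difference between NMBA+Alpha-T and Control rats (log2, vertical axis) against the mean level of the 2 groups (log2 signal minus 75th percentile, horizontal axis), 1 point per gene tested. The 65 genes called higher and 19 called lower are coloured, and Gip lies at 4.59 and Krt82 at 3.39.

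How far a call depended on the fit differed between genes. When slide entered as a fixed block, 4 genes were called, all higher, against 84 without it, and the median standard error was 0.45 against 0.21. All 84 genes kept their sign there. Both fits use the same NMBA+Alpha-T arrays and Control rat 1, so this is no independent check. With only the 10 arrays of these groups in the fit, 6 genes were called, 5 higher and 1 lower. Of the 35 genes named in this text as called, Gip, Krt82 and Fgf13 were called with the slide block, and Gip, Krt82, Cxcl10 and Bmp8a with only the 10 arrays. Leaving out 1 rat at a time, 12 of the 35 were called each time: Gip, Krt82, Atp13a5, Bmp3, Fgf13, Mybl1, Nfic, Klk1c8, Cyp1a1, C1h19orf47, Bmp8a and Adm2. Most of the 35 calls were lost without Control rat 4 (23 lost), Control rat 5 (21 lost) or NMBA+Alpha-T rat 1 (18 lost). NMBA+Alpha-T rat 4 was the lowest of its group in the mean of the fibroblast (-0.71), macrophage (-0.94), endothelial (-0.76) and T and NK cell lists (-1.02). Without this rat 13 of the calls named here were lost, with adjusted p-values of 0.0548 to 0.108 (limma). The differences were then 1.35 for Fosl1, -1.58 for Zbtb16, -1.13 for Sox18, -1.1 for Defb5, 0.92 for Dusp1, 1.08 for Mthfd2, 1.42 for Ccne1, 0.58 for Tyms, 1.3 for H1f4, 1.0 for Trib1, 1.03 for Ralgps2, 0.65 for Mdm4 and 0.85 for Tnfrsf18.

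Gip, which encodes the gut hormone glucose-dependent insulinotropic polypeptide, had the largest rise. Its level was -2.22, -3.10, -1.90, -2.50 and -3.40 in NMBA+Alpha-T rats, and -7.96, -7.16, -7.96, -6.52 and -6.46 in Control rats. Every NMBA+Alpha-T rat exceeded every Control rat, and the probe was well above background on all 5 NMBA+Alpha-T arrays and on 2 Control arrays. The difference was 4.59 ± 0.34 (SE; limma, adjusted p = 1.95e-08), and its 24.0-fold size is unsure because 3 Control arrays did not detect the probe. NMBA rats read -2.25, -1.63, -1.24, -1.68 and -1.31, a difference from Control of 5.59, and NMBA+Alpha-T minus NMBA was -1.0 ± 0.34 (adjusted p = 0.0997). With slide as a fixed block the difference from Control was 6.32 (95% interval 4.90 to 7.74), and with normexp background correction it was 2.51.

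The promoter of Gip is shown because this gene led the comparison. In the RefSeq window of GRCr8 (chr10:81464820-81465119, plus strand, 250 bases before to 50 after the gene start), AGATAA, the letters bound by GATA factors, was found at -194 and -75, in capitals here, counted from the gene start. On either strand, AGATAA stood in 11.6% of 33469 such windows, and of the other windows looked at here Atp13a5's held 1.
Gip: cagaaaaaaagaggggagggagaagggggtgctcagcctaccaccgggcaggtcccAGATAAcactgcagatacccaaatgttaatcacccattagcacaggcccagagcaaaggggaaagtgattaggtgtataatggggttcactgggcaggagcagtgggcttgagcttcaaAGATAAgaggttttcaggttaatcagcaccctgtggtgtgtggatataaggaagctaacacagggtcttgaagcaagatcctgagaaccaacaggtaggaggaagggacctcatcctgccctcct

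Gipr, the receptor of that hormone, was lower in NMBA+Alpha-T rats. Its levels were -3.24, -3.09, -2.71, -2.85 and -3.72 in NMBA+Alpha-T rats, against -1.47, -2.10, -2.02, -0.87 and -1.06 in Control rats, without overlap. The difference was -1.62 ± 0.32 (3.07-fold lower, adjusted p = 0.0186). NMBA rats, at -2.12, -1.12, -0.52, -0.99 and -2.72, overlapped the Control rats and differed from them by 0.01. NMBA+Alpha-T minus NMBA was -1.63 (adjusted p = 0.00852). The call against Control was lost without NMBA+Alpha-T rat 1, Control rat 4 or Control rat 5 (differences over the 10 left-out rats -1.77 to -1.46). With slide as a block it was -1.54 (interval -2.89 to -0.20, adjusted p = 0.406).

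Krt82, a hair keratin gene, read -3.80, -4.98, -4.01, -4.16 and -5.16 in NMBA+Alpha-T rats and -8.20, -7.55, -8.21, -7.40 and -7.72 in Control rats. It was well above background on no Control array and on every NMBA+Alpha-T array. The difference was 3.39 ± 0.36 (adjusted p = 1.25e-05), which, with Control only bounded, is at least 3.93-fold higher, setting each Control array at the lowest signal of probes with all their spots well above background (-6.86 to -6.20). In NMBA rats the difference from Control was 3.66, and the 2 NMBA-exposed groups overlapped (-0.26 ± 0.36). With the slide block it was 5.00 (interval 3.62 to 6.37), and 1.29 with normexp background correction.

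Atp13a5, which encodes a transporter ATPase of the P5 type, was at -3.84, -5.25, -4.18, -4.0 and -4.23 in NMBA+Alpha-T rats, against -6.22, -7.37, -5.77, -7.22 and -6.17 in Control rats. The groups did not overlap, and the difference was 2.25 ± 0.29 (adjusted p = 0.000297), with 2 Control arrays detecting the probe. With the slide block it was 1.83 (interval 0.44 to 3.22, adjusted p = 0.406), and 1.15 with normexp. Fgf13, an intracellular member of the fibroblast growth factor family that binds sodium channels, varied least among NMBA+Alpha-T rats, at -2.71, -2.73, -2.72, -2.37 and -2.33. Control rats read -5.62, -3.96, -4.93, -3.68 and -4.17. The rise was 1.90 ± 0.26 (3.74-fold, adjusted p = 0.000636), a second probe of the gene differed by 1.61, and the slide block gave 3.36 (interval 2.41 to 4.30, adjusted p = 0.00108). Bmp3, a BMP ligand known as an antagonist of bone-forming BMPs, rose by 2.13 ± 0.31 (adjusted p = 0.00118), with -4.75 ± 0.59 in NMBA+Alpha-T and -6.88 ± 0.71 in Control rats (SD, n = 5 each). Bmp3 differed by 1.27 with the slide block (adjusted p = 0.422), and by 0.93 with normexp. Klk1c8, a glandular kallikrein gene with close paralogs that its probe may also read, rose by 1.63 ± 0.30 (adjusted p = 0.0102; 1.48 and adjusted p = 0.412 with the block). In NMBA rats the differences from Control were 3.66 for Krt82, 2.78 for Atp13a5, 1.79 for Fgf13, 1.78 for Bmp3 and 1.82 for Klk1c8.

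**Figure D2:**
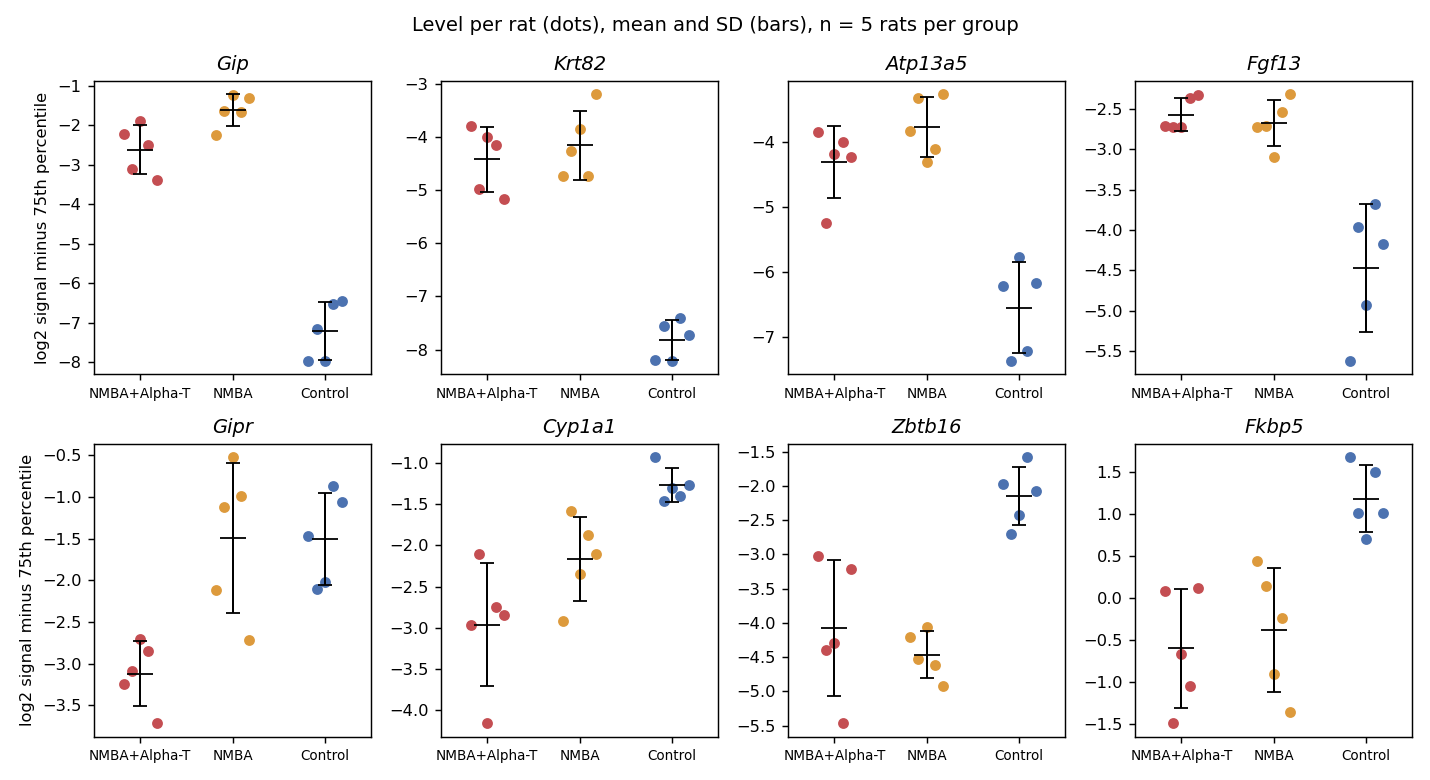
Level of 8 genes (log2 signal minus 75th percentile, vertical axis) in each NMBA+Alpha-T, NMBA and Control rat; dots are rats, bars the mean and SD of 5 rats. All NMBA+Alpha-T rats lie above all Control rats for Gip, Krt82, Atp13a5 and Fgf13 and below them for Gipr, Cyp1a1, Zbtb16 and Fkbp5; for Gipr the NMBA rats overlap Control.

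Among the falls were Zbtb16 and Fkbp5, classical targets of the glucocorticoid receptor; Fkbp5 encodes an immunophilin that restrains that receptor. Zbtb16 was at -3.02, -4.39, -4.30, -5.47 and -3.21 in NMBA+Alpha-T rats and at -1.98, -2.70, -2.42, -1.58 and -2.07 in Control rats. Fkbp5 was at 0.09, -1.49, -0.66, -1.04 and 0.12 in NMBA+Alpha-T rats, against 1.68, 1.02, 0.71, 1.5 and 1.02 in Control rats. Neither gene's groups overlapped. Zbtb16 fell by 1.93 ± 0.42 (3.82-fold, adjusted p = 0.0311) and Fkbp5 by 1.78 ± 0.36 (3.44-fold, adjusted p = 0.0186). In NMBA rats the differences from Control were -2.32 and -1.56. Zbtb16 lost its call without any of 7 single rats (NMBA+Alpha-T 2, 3 or 4, Control 1, 3, 4 or 5; -2.20 to -1.58), and Fkbp5 without Control rat 4 (-1.70). With the slide block the differences were -1.44 (adjusted p = 0.486) for Zbtb16 and -2.40 (adjusted p = 0.384) for Fkbp5.

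The glucocorticoid-induced list as a whole did not follow these falls. Of 15 members tested, 1 rose and 2 fell, beside 0.527% and 0.154% of all genes, and the median difference was 0.12. Dusp1, the phosphatase that switches off MAP kinases, was the riser, at -0.75, -0.61, -0.80, -0.46 and 0.09 in NMBA+Alpha-T rats and -1.41, -1.14, -1.52, -1.70 and -1.42 in Control rats. Its difference was 0.93 ± 0.20 (1.91-fold, adjusted p = 0.0308), and NMBA rats differed from Control by 0.17. The Dusp1 call was lost without any of 6 single rats (NMBA+Alpha-T 1, 4 or 5, Control 3, 4 or 5; 0.79 to 1.01), and the slide block gave 0.39 (adjusted p = 0.687).

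Cyp1a1, the cytochrome P450 that the aryl hydrocarbon receptor induces, was at -2.96, -2.10, -4.16, -2.75 and -2.84 in NMBA+Alpha-T rats and at -0.93, -1.46, -1.30, -1.40 and -1.27 in Control rats. All NMBA+Alpha-T rats lay below all Control rats. The gene fell by 1.69 ± 0.29 (3.22-fold, adjusted p = 0.00793), and the NMBA rats, whose difference was -0.89, did not pass the test (adjusted p = 0.153). NMBA rats, at -2.92, -1.59, -2.35, -1.87 and -2.11, lay wholly below Control rats too. They overlapped the NMBA+Alpha-T rats, and NMBA+Alpha-T minus NMBA was -0.79 (limma, adjusted p = 0.134). With the slide block the difference of Cyp1a1 from Control was -2.67 (interval -4.03 to -1.31, adjusted p = 0.222). It was the sole called member among 14 xenobiotic metabolism genes tested. Of these, 3 had positive differences, beside 52.1% of all genes, and the median was -0.23. Cyp2a3, a nitrosamine-activating P450 of the rat airway and esophagus, averaged -4.94 ± 0.79 in NMBA+Alpha-T and -4.30 ± 0.46 in Control rats (adjusted p = 0.502). In the mean over this list NMBA+Alpha-T rats ranged from -0.24 to 0.04, NMBA rats from 0.06 to 0.36 and Control rats from 0.12 to 0.23.

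The remaining falls of the 10 largest were smaller. Sox18, a transcription factor of blood and lymph vessel endothelium, was at -2.04 ± 0.42 in NMBA+Alpha-T and -0.74 ± 0.17 in Control rats (difference -1.30, adjusted p = 0.0437; -0.88 and adjusted p = 0.552 with the slide block). Its call was lost without any single rat of either group (-1.41 to -1.13) and with no filter on dim probes, and of 10 endothelial markers tested 0 were called, and 0 had an unadjusted p below 0.05. The beta-defensin genes Defb5 and Defb24, which encode small antimicrobial peptides, differed by -1.1 ± 0.24 (adjusted p = 0.0302) and -1.09 ± 0.21 (adjusted p = 0.0175). The slide block gave -0.02 (interval -1.08 to 1.04) and -0.35 (interval -1.22 to 0.52). Defb24 lost its call without NMBA+Alpha-T rat 1, Control rat 4 or Control rat 5 (-1.18 to -0.98). Defb5 lost it without NMBA+Alpha-T rats 1, 2 or 4 or Control rats 3, 4 or 5 (-1.22 to -0.91).

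**Figure D3:**
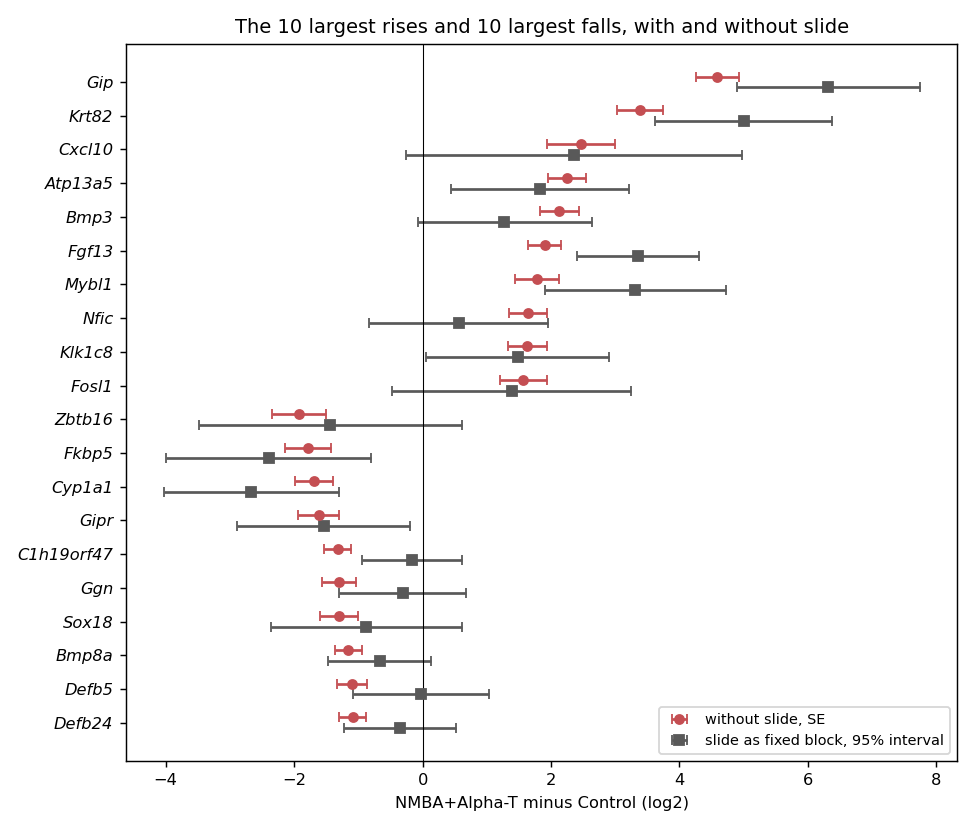
Difference between NMBA+Alpha-T and Control rats (log2) for the 10 largest rises and falls, without slide (circles, SE) and with slide as a fixed block (squares, 95% interval). Intervals of Gip, Krt82 and Fgf13 stay above 2, and those of Cxcl10, Bmp3, Nfic, Fosl1, Zbtb16, C1h19orf47, Ggn, Sox18, Bmp8a, Defb5 and Defb24 span 0. Of the Control rats, only rat 1 enters the size of the block values. Krt82 was well above background on no Control array and Gip on 2, so the sizes of their differences are unsure.

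Some called genes also differed from NMBA rats in the same direction at an adjusted p below 0.05: 6 higher and 6 lower among those at least 1 log2 unit from Control. Of all genes tested, 1.25% were higher and 2.68% lower than in NMBA rats. Both comparisons use the same 5 NMBA+Alpha-T arrays, so a shared direction is no independent support, and the counts describe only which genes are named. Nfic, a nuclear factor I transcription factor, was at -4.06, -4.03, -3.13, -3.79 and -3.36 in NMBA+Alpha-T rats, -6.57, -6.68, -5.61, -5.80 and -6.33 in NMBA rats, and -4.67, -5.91, -5.99, -4.72 and -5.28 in Control rats. It was 1.64 ± 0.30 above Control (adjusted p = 0.0104) and 2.52 above NMBA. Mybl1, a MYB family transcription factor of germ cells, was detected on 4 NMBA+Alpha-T arrays, on 0 NMBA arrays and on 0 Control arrays, and its difference from Control was 1.78 ± 0.34 (adjusted p = 0.0136), with no fold given because its mean of -6.41 in NMBA+Alpha-T rats lay under the mean of those Control levels. The kinase-like adaptor gene Trib1 (1.11, adjusted p = 0.021), the linker histone gene H1f4 (1.31, adjusted p = 0.0307) and Ralgps2 (1.18, adjusted p = 0.0268), an exchange factor of Ral, rose too.

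In the falling direction C1h19orf47 differed by -1.32 ± 0.21 from Control (adjusted p = 0.00307) and by -1.67 from NMBA, while its other probe differed from Control by -0.26. Ggn, which encodes the germ cell protein gametogenetin, differed by -1.30 and -1.54 (adjusted p = 0.0175 against Control), and Bmp8a, a BMP ligand, by -1.16 and -1.34 (adjusted p = 0.00999 against Control). All NMBA+Alpha-T arrays were on slide 1, which held no NMBA and no Control array, so for genes that set this group apart from both, slide cannot be told apart from group. With the slide block the differences from Control were 0.56 for Nfic, 0.24 for Trib1, 0.70 for Ralgps2, -0.16 for C1h19orf47, -0.31 for Ggn and -0.67 for Bmp8a. They were 3.31 for Mybl1 and 2.17 for H1f4. With normexp, Bmp8a (-0.41) and Ralgps2 (0.49) lost their calls and Mybl1 differed by 0.62 and Trib1 by 0.70; with the mean of its probes C1h19orf47 (-0.79) lost its call. In the NMBA+Delta-T group, rats on slide 1 minus rats on slide 2 gave 0.43 for Nfic, -1.1 for Mybl1, 0.37 for Trib1, -0.6 for H1f4 and -0.2 for Ralgps2. This slide difference was -0.68 for C1h19orf47, -0.48 for Ggn, -0.08 for Bmp8a, -0.63 for Defb5 and -0.11 for Gipr. For Gip it was -0.99 and for Krt82 -1.22. Without 1 rat, calls were lost for Trib1 (NMBA+Alpha-T 1 or 4, Control 4 or 5; 1.0 to 1.33), Ralgps2 (NMBA+Alpha-T 2 or 4, Control 4 or 5; 1.03 to 1.35), Ggn (NMBA+Alpha-T 1, Control 4 or 5; -1.43 to -1.12) and H1f4 (any rat but NMBA+Alpha-T 3; 1.18 to 1.56).

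The genes that NMBA moved most from Control were then read in NMBA+Alpha-T rats, side by side, both against the same Control arrays. Of the 10 largest rises, Gip, Krt82, Atp13a5 and Cxcl10 passed the test in NMBA+Alpha-T rats, and 6 did not. Those 6 are genes of lymphocytes and of the interferon response. The NMBA values chose these genes, so smaller differences in NMBA+Alpha-T rats can follow from the choice alone. Cd27, a T cell costimulatory receptor that no Control array detected, differed by 1.69 (adjusted p = 0.299), against 3.83 in NMBA rats. Ubd, an interferon-inducible ubiquitin-like protein, differed by 1.76 (adjusted p = 0.082; 0.044, and called, with slide as a random block), against 3.28 in NMBA rats. With slide as a fixed block Ubd differed by 1.3 and was not called (limma, adjusted p = 0.574). Sh2d1a, a signalling adaptor of T and NK cells, differed by 1.14 against 2.92, and Ctsw, a protease of cytotoxic lymphocytes, by 0.93 against 2.83. Of the 5 largest falls, Zbtb16 passed. The actin regulator Phactr3 differed by -0.89 in NMBA+Alpha-T rats against -2.15 in NMBA rats, the glutamate receptor subunits Grik2 and Gria2 by -1.18 against -1.95 and by -0.34 against -1.80, and the polycystin family member Pkd2l2 by -0.74 against -1.66. Cd27 and Sh2d1a were well above background on no Control array, and Grik2, Gria2 and Pkd2l2 on no NMBA array. Their changes in NMBA rats are therefore bounds, at least 4.89-fold higher for Cd27, 2.83-fold higher for Sh2d1a, 1.08-fold lower for Grik2 and 1.3-fold lower for Pkd2l2, with no fold given for Gria2. In NMBA+Alpha-T rats the bound is at least 1.11-fold higher for Cd27, and no fold is given for Sh2d1a. With slide as a fixed block the differences of NMBA+Alpha-T from Control turned to -0.07 for Cd27 and -1.11 for Ctsw and were 0.24 for Sh2d1a and 0.41 for Cxcl9. In that order, NMBA+Delta-T rats on slide 1 minus those on slide 2 gave 2.56, 1.38, 1.37 and 1.31. Directly against NMBA rats, Cxcl9, Cxcl10, Cxcl11 and Ctsw were lower (limma, adjusted p = 0.0441, 0.0465, 0.0169 and 0.0142). The other rises and falls chosen here did not pass that test (adjusted p = 0.051 to 0.767). It uses the same NMBA arrays that chose the genes.

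**Figure D4:**
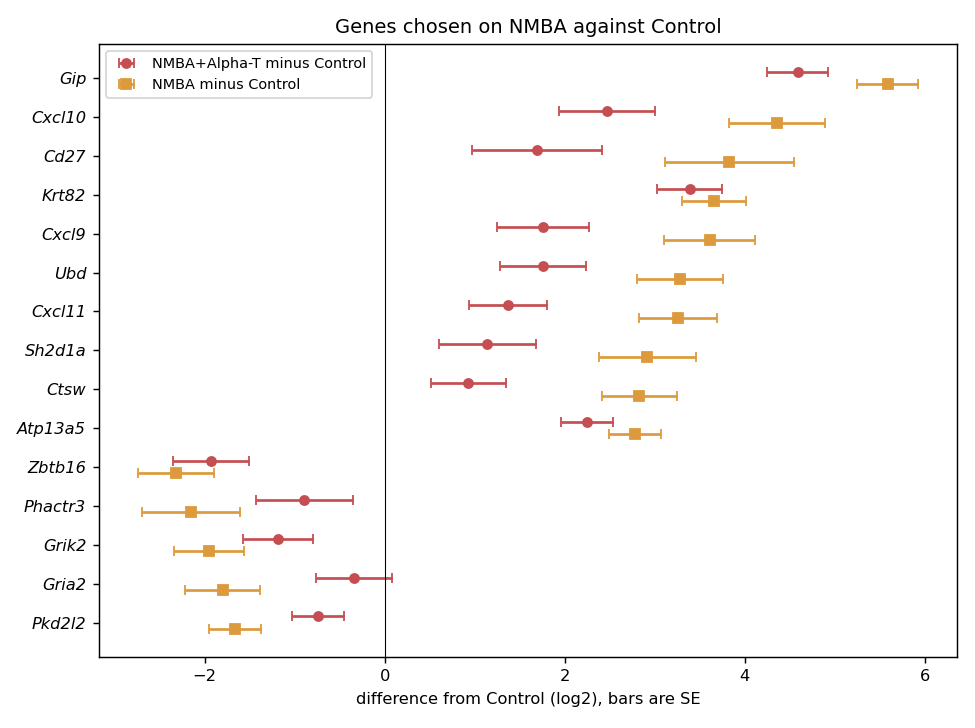
Difference from Control (log2, bars are SE) of the 10 largest rises and 5 largest falls of NMBA rats, in NMBA+Alpha-T (circles) and NMBA rats (squares). The NMBA values chose the genes; Gip, Krt82, Atp13a5 and Zbtb16 differ by 4.59, 3.39, 2.25 and -1.93 in NMBA+Alpha-T rats, and Cd27, Cxcl9, Cxcl11, Sh2d1a and Ctsw by 1.69, 1.76, 1.37, 1.14 and 0.93.

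The chemokines Cxcl9, Cxcl10 and Cxcl11 are induced by interferon gamma and draw T and NK cells through the receptor Cxcr3. Cxcl10 was at -2.51, -2.41, -2.20, -3.38 and -1.81 in NMBA+Alpha-T rats, at 0.26, -0.29, -0.93, -1.62 and -0.29 in NMBA rats and at -5.31, -5.24, -4.50, -4.56 and -5.07 in Control rats. The 3 groups did not overlap. The rise over Control was 2.47 ± 0.53 (5.55-fold, adjusted p = 0.0286), and against NMBA the difference was -1.89 (adjusted p = 0.0465). The Cxcl10 call against Control was lost without any of 7 single rats (NMBA+Alpha-T 1, 2 or 5, Control 1, 2, 4 or 5; 2.31 to 2.70), and the slide block gave 2.36 (interval -0.26 to 4.98, adjusted p = 0.43).

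Cxcl9 was at 0.00, 0.31, -0.32, -1.16 and 0.76 in NMBA+Alpha-T rats and -1.80, -2.45, -2.04, -1.38 and -1.53 in Control rats, without overlap (difference 1.76 ± 0.51, adjusted p = 0.0992). Cxcl11 was at -3.55, -3.42, -3.73, -3.82 and -3.32 in NMBA+Alpha-T rats and -5.76, -4.67, -4.59, -4.83 and -4.84 in Control rats, again without overlap (1.37 ± 0.43, adjusted p = 0.128). Cxcr3 overlapped, at -3.56 ± 0.60 in NMBA+Alpha-T and -4.0 ± 0.43 in Control rats (adjusted p = 0.699). So 1 of these 4 genes was called and 3 had NMBA+Alpha-T rats wholly above Control rats, against 2.37% of all genes. In the mean of the 4 genes, NMBA+Alpha-T rats ranged from -0.76 to 0.59, NMBA rats from 0.70 to 2.44 and Control rats from -1.86 to -1.13.

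The Cxcl10 promoter (RefSeq, GRCr8, chr14:15988816-15989115, plus strand) is printed because Cxcl10 was the called chemokine. The interferon-stimulated response element, searched as a pair of GAAA runs with 2 bases of any kind between them, was found in it at -243, in capitals. It stood on either strand in 3.92% of windows. The windows of Cxcl9 and Cxcl11 held none, and that of Oas1a held 2.
Cxcl10: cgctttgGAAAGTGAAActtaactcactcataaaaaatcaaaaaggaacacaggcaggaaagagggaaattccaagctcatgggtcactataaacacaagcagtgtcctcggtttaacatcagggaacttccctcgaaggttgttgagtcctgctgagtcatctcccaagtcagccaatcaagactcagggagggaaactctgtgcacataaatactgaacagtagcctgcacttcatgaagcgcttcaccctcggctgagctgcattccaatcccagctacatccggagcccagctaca

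Of 22 interferon-induced genes tested 0 were called in NMBA+Alpha-T rats (limma; 1 was higher at an unadjusted p below 0.05), and the median difference was 0.07, against 0.67 in NMBA rats, where 4 rose. Oas1a, an antiviral oligoadenylate synthetase, was at -2.68, -2.75, -1.56, -1.74 and -2.55 in NMBA+Alpha-T rats and -3.17, -3.02, -3.52, -2.88 and -3.75 in Control rats. These do not overlap, but the difference of 1.01 did not pass the test (adjusted p = 0.204). Isg15, the interferon-induced ubiquitin-like modifier, differed by 0.58 (adjusted p = 0.404), against 2.39 in NMBA rats. The slide block turned the NMBA+Alpha-T differences of Oas1a to -0.26 and of Isg15 to -0.16. For 22 T and NK cell genes, 0 were called (1 higher at an unadjusted p below 0.05) and the median was 0.13 in NMBA+Alpha-T rats, while in NMBA rats 12 rose and the median was 1.25. Cd3e, a T cell receptor subunit, was at -4.53 ± 0.72 in NMBA+Alpha-T, -3.07 ± 0.89 in NMBA and -5.19 ± 0.69 in Control rats, and its NMBA+Alpha-T difference from Control of 0.66 turned to -0.49 with the slide block. In these bulk RNA samples, fewer cells of a type and less RNA per cell cannot be told apart.

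MHC class II genes, which present antigen to T cells, gave 0 calls of 10 (0 also at an unadjusted p below 0.05) and a median of 0.02, against 0.71 in NMBA rats. Ciita, their master regulator, differed by 0.17 ± 0.24 (adjusted p = 0.817), against 1.22 in NMBA rats. NF-kB subunits and targets gave 0 of 14 (1 lower unadjusted) and a median of -0.15. Rela, the p65 subunit, differed by -0.04 ± 0.22, and the cytokine gene Tnf by -0.95 ± 0.41 (adjusted p = 0.301). In the mean of the T and NK cell list, NMBA+Alpha-T rats ranged from -1.02 (rat 4) to 0.38, NMBA rats from 0.14 to 1.58 and Control rats from -0.58 to 0.14. Without NMBA+Alpha-T rat 4 or another single rat, the medians from Control ranged from -0.03 to 0.36 for T and NK cell genes, from -0.09 to 0.17 for MHC class II genes and from -0.03 to 0.21 for interferon-induced genes. With slide as a fixed block the T and NK cell median was -0.61.

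**Figure D5:**
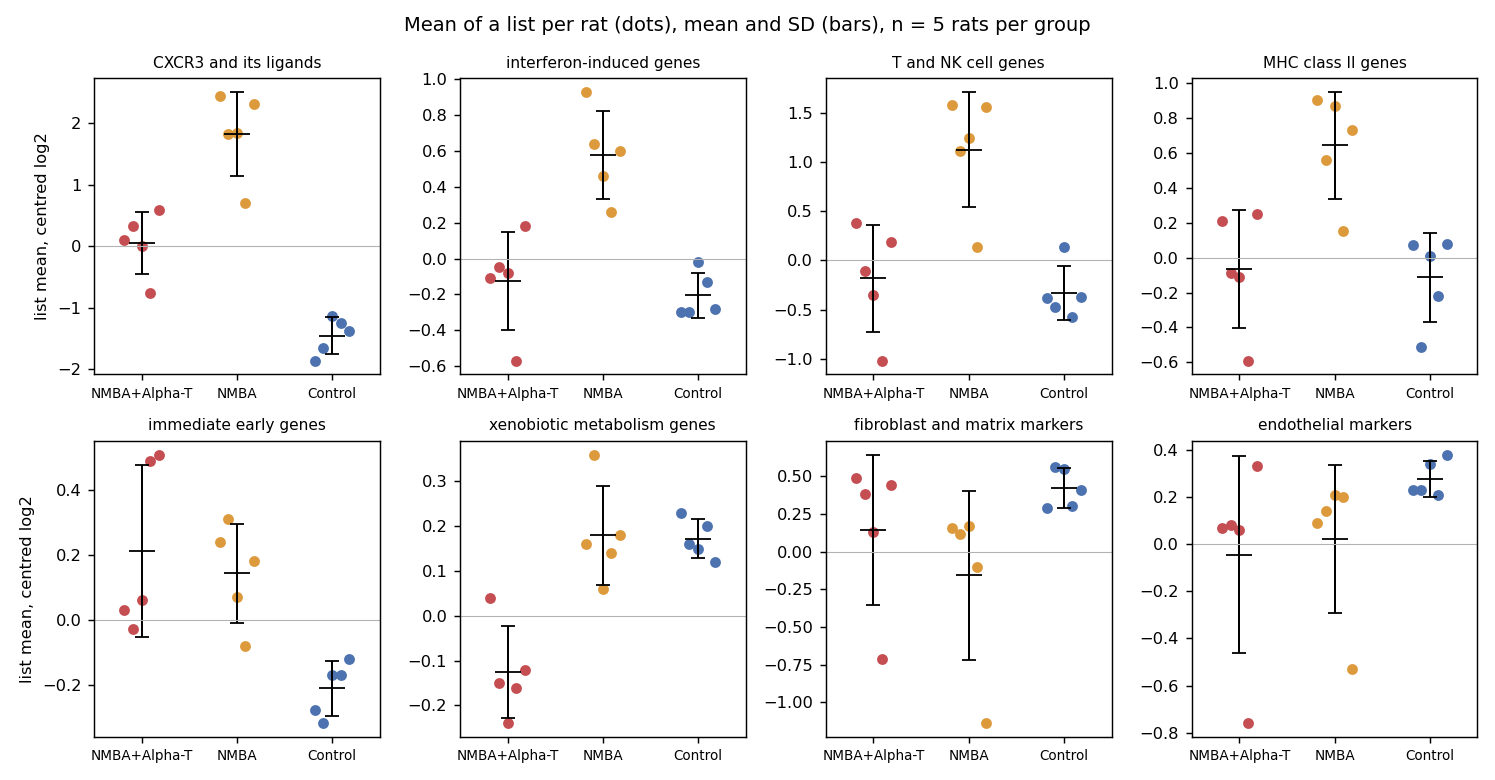
Mean of 8 gene lists per rat (each gene centred on its mean, log2, vertical axis) in NMBA+Alpha-T, NMBA and Control rats, with mean and SD of 5 rats. For CXCR3 and its ligands the NMBA+Alpha-T rats (-0.76 to 0.59) lie between NMBA and Control rats, for T and NK cell genes they overlap both groups, and for the fibroblast and endothelial lists rat 4 is lowest at -0.71 and -0.76.

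Of 17 p53 and DNA damage genes tested 0 were called (5 higher at an unadjusted p below 0.05), and 16 of 17 differences were positive with a median of 0.23, beside 52.1% positive and a median of 0.01 over all genes. The members that differed most were Btg2, an antiproliferative p53 target (0.53, adjusted p = 0.103), and cyclin G1, Ccng1 (0.46, adjusted p = 0.368). Cdkn1a, the cyclin-dependent kinase inhibitor p21, was at 2.07, 2.10, 1.67, 2.17 and 1.83 in NMBA+Alpha-T rats, at 2.23, 2.16, 2.30, 2.54 and 2.81 in NMBA rats and at 1.1, 1.66, 1.72, 1.71 and 1.82 in Control rats. It overlapped Control (0.37 ± 0.15, adjusted p = 0.269), and NMBA rats were 0.81 above Control (adjusted p = 0.00445). NMBA+Alpha-T minus NMBA was -0.44, with overlap, and did not pass (limma, adjusted p = 0.0986). With slide as a fixed block Cdkn1a differed from Control by 1.06 in NMBA+Alpha-T rats (interval 0.51 to 1.61, limma, adjusted p = 0.226). Mdm4, an inhibitor of p53 chosen after its values were seen, rose by 0.71 ± 0.15 (adjusted p = 0.0302); the call was lost without NMBA+Alpha-T rats 4 or 5 or Control rats 3, 4 or 5 (0.62 to 0.78), and the slide block gave 0.60 (adjusted p = 0.448).

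Mgmt, the enzyme that removes methyl groups from guanine, was at 0.59 ± 0.42 in NMBA+Alpha-T rats, 1.02 ± 0.18 in NMBA rats and 0.16 ± 0.10 in Control rats. The difference from Control was 0.43 ± 0.16 (adjusted p = 0.237), against 0.86 in NMBA rats (adjusted p = 0.00619). NMBA+Alpha-T minus NMBA was -0.43, with overlap, and did not pass (limma, adjusted p = 0.154). Of the 11 alkylation and mismatch repair genes tested, 0 were called (3 higher unadjusted) and the median was 0.03. Apex1, the abasic site endonuclease, differed by -0.52, with NMBA+Alpha-T rat 1 at -0.27 and the other rats of that group between 2.02 and 2.27.

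Of 33 cell cycle and replication genes 2 rose, beside 0.527% of all genes, and the median was 0.18. At an unadjusted p below 0.05 (limma), 5 were higher and 0 lower (15.2%, against 13.6% of all genes). Ccne1, cyclin E1 of the G1 to S transition, was at -0.27, 0.34, -1.19, -0.61 and -0.07 in NMBA+Alpha-T rats and -2.54, -1.08, -1.23, -2.28 and -1.48 in Control rats. Control rat 2 lay above NMBA+Alpha-T rat 3, and the difference was 1.36 ± 0.31 (2.57-fold, adjusted p = 0.0403), against 1.21 in NMBA rats. Tyms, thymidylate synthase of DNA precursor synthesis, was at -1.15, -1.31, -1.35, -0.73 and -1.19 in NMBA+Alpha-T rats and -1.58, -1.74, -1.84, -2.03 and -1.97 in Control rats (0.68 ± 0.15, adjusted p = 0.0282). Ccnd1, cyclin D1, did not overlap either, at 2.62 ± 0.14 in NMBA+Alpha-T and 2.09 ± 0.16 in Control rats, but did not pass the test (0.53, adjusted p = 0.141). Mki67, the proliferation marker, averaged 1.45 ± 0.61 in NMBA+Alpha-T and 1.66 ± 0.63 in Control rats, and its 3 probes differed by -0.21, 0.14 and 0.40. With slide as a fixed block the Mki67 difference turned from -0.21 to 1.14 (95% interval -0.27 to 2.54). E2f3, a transcription factor of S phase genes chosen after its values were seen, rose by 0.94 ± 0.19 (adjusted p = 0.0237). Calls were lost without 1 rat for Ccne1 (NMBA+Alpha-T 1, 2, 4 or 5, Control 1, 4 or 5; 1.16 to 1.57), Tyms (NMBA+Alpha-T 1 or 4, Control 3, 4 or 5; 0.58 to 0.75) and E2f3 (NMBA+Alpha-T 1 or 2, Control 4 or 5; 0.85 to 1.01). In the fit with slide they differed by 2.17, 0.43 and 1.08, and none passed.

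Immediate early genes, which growth factors and stress switch on within minutes, had 2 of 22 called, both higher, beside 0.527% of all genes. Of the 22, 18 were positive with a median of 0.36, beside 52.1% and 0.01 over all genes. At an unadjusted p below 0.05 (limma), 7 were higher and 0 lower (31.8%, against 13.6% of all genes). Fosl1, the AP-1 subunit Fra-1, was at -2.71, -3.55, -3.36, -1.83 and -2.07 in NMBA+Alpha-T rats and -4.10, -5.39, -3.62, -4.59 and -3.67 in Control rats. Its difference was 1.57 ± 0.37 (2.97-fold, adjusted p = 0.0482), and 1.95 in NMBA rats. The Fosl1 call was lost without any of 7 single rats (NMBA+Alpha-T 1, 4 or 5, Control 1, 2, 4 or 5; 1.29 to 1.78), with no filter on dim probes and with the slide block (1.39, adjusted p = 0.469). The second called member was Dusp1 (0.93). In the list mean NMBA+Alpha-T rats ranged from -0.03 to 0.51, NMBA rats from -0.08 to 0.31 and Control rats from -0.32 to -0.12.

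Mmp10, stromelysin 2, a matrix-degrading protease whose gene is an AP-1 target, was at -5.42, -6.11, -5.85, -5.33 and -5.34 in NMBA+Alpha-T rats and -8.18, -7.41, -6.03, -7.39 and -7.13 in Control rats. Control rat 3 lay within the range of the NMBA+Alpha-T rats, and the probe was well above background on 5 NMBA+Alpha-T arrays and 1 Control array. The difference was 1.62 ± 0.32 (adjusted p = 0.0175), of unsure size against so dim a Control signal, and 1.82 in NMBA rats. It was the sole call among 13 metalloproteinases and inhibitors tested, whose median was -0.18. The call was lost without Control rat 4 (1.58), under normexp (0.56) and with the slide block (2.43, adjusted p = 0.298). The Mmp10 promoter (RefSeq, GRCr8, chr8:12974457-12974756, plus strand) is shown because it holds TGANTCA, the AP-1 site, at -61, in capitals. These letters stood in 7.33% of windows, among them those of Cxcl10, Cxcl11 and Fgf13 and not that of Fosl1.
Mmp10: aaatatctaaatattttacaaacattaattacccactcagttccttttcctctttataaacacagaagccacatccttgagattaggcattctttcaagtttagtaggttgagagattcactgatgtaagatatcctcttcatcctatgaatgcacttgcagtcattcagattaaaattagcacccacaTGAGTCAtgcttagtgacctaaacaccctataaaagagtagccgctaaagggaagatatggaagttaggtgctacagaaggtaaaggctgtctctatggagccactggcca

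Among 21 amino acid response and ER stress genes Mthfd2 alone was called. It encodes a mitochondrial enzyme of folate metabolism and differed by 1.26 ± 0.27 (2.39-fold, adjusted p = 0.0304), with -1.99 ± 0.45 in NMBA+Alpha-T and -3.25 ± 0.66 in Control rats and Control rat 2 overlapping. Its other probes differed by 0.74 and 0.57, the call was lost without NMBA+Alpha-T rats 1, 4 or 5 or Control rats 3, 4 or 5 (1.05 to 1.5), and the slide block gave 0.68 (adjusted p = 0.589). Adm2, a peptide of the adrenomedullin family chosen after its values were seen, was at -0.66, -1.23, -0.93, -1.29 and -1.28 in NMBA+Alpha-T rats, -0.83, -0.67, -0.32, -0.72 and -0.28 in NMBA rats and -2.24, -1.83, -2.03, -2.01 and -1.78 in Control rats. It rose by 0.90 ± 0.16 over Control (1.87-fold, adjusted p = 0.00999), against 1.41 in NMBA rats, and by 1.56 with the slide block (interval 0.85 to 2.27, adjusted p = 0.137). Fgf21, a stress-induced hormone of the same choice, was at -5.76 ± 0.23 in NMBA+Alpha-T rats and below background on all Control arrays, at least 1.52-fold higher (adjusted p = 0.0237); the call was lost without NMBA+Alpha-T rat 1, Control rat 4 or Control rat 5 (0.93 to 1.27), under normexp (0.48) and with the slide block (1.42, adjusted p = 0.406).

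Of 19 vitamin E transport and metabolism genes tested 0 were called (limma; 4 higher at an unadjusted p below 0.05), and the median was 0.03. Ttpa, the alpha-tocopherol transfer protein, was at -3.83, -4.12, -3.42, -3.58 and -3.80 in NMBA+Alpha-T rats, -3.57, -3.56, -4.30, -4.35 and -3.52 in NMBA rats and -4.76, -4.09, -4.65, -5.23 and -5.36 in Control rats. Control rat 2 overlapped, and the difference of 1.07 ± 0.26 was close to the threshold (adjusted p = 0.0538). NMBA rats, which had no alpha-tocopherol intervention, differed from Control by 0.96. Ttpa was called with slide as a random block (1.05, adjusted p = 0.0294), with normexp (0.74) and without Control rat 2 (1.25). It was not called with slide as a fixed block (1.68, limma, adjusted p = 0.394). Sec14l3, a lipid-binding protein of the Sec14 family, varied by several log2 units within each group (-6.39 ± 2.56 in NMBA+Alpha-T, -5.06 ± 2.06 in Control). Of 18 Nrf2 and antioxidant genes 0 were called (1 higher unadjusted) and the median was -0.02. Nqo1, the quinone reductase used as a marker of Nrf2, averaged 3.46 ± 0.11 in NMBA+Alpha-T and 3.52 ± 0.20 in Control rats, and catalase, Cat, 0.82 ± 0.22 in NMBA+Alpha-T and 0.45 ± 0.21 in Control rats (adjusted p = 0.213).

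The metabolic lists gave no call either: 0 of 20 fatty acid oxidation and PPAR target genes (median 0.08), 0 of 15 sterol synthesis genes (median 0.10) and 0 of 21 glycolysis and hypoxia genes (median -0.13). At an unadjusted p below 0.05 these had 4 higher, 1 higher, and 1 higher with 2 lower. Pdk4, a kinase that shuts pyruvate out of oxidation, was at -2.98, -3.01, -3.46, -2.77 and -0.83 in NMBA+Alpha-T rats and -4.39, -3.72, -5.25, -3.54 and -3.94 in Control rats. The groups did not overlap, and the difference was 1.55 ± 0.52 (adjusted p = 0.158). Against NMBA rats it was 1.98 (adjusted p = 0.0327).

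Of the listed epithelial genes, 0 of 18 squamous differentiation genes (median -0.04) and 0 of 15 basal and progenitor genes (median -0.06) were called, and at an unadjusted p below 0.05 there were 1 higher with 1 lower, and 1 lower. Aqp3, a water and glycerol channel of basal keratinocytes, was at 2.84 ± 0.34 in NMBA+Alpha-T, 3.34 ± 0.07 in NMBA and 3.34 ± 0.14 in Control rats (-0.50, adjusted p = 0.0807 against Control; adjusted p = 0.0465, and called, with slide as a random block). With slide as a fixed block Aqp3 differed by -0.39 and was not called (limma, adjusted p = 0.553). Tmprss11d, an airway and esophageal serine protease, differed by 0.49 (adjusted p = 0.128). EGF receptor family members and ligands gave 0 of 10 (2 higher unadjusted) and a median of 0.23, with betacellulin, Btc, at 0.66 (adjusted p = 0.28) and amphiregulin, Areg, at 0.35 (adjusted p = 0.293). Eicosanoid genes gave 0 of 21 (1 higher unadjusted) and a median of -0.10. The prostaglandin receptor gene Ptger4 differed by 0.72 (adjusted p = 0.291), and Ptgs2, cyclooxygenase 2, was among the genes not tested because too few arrays detected it. Of 14 circadian clock genes 0 were called (3 higher and 1 lower unadjusted). Nr1d1, the clock repressor REV-ERB alpha, was at -5.56, -5.99, -1.33, -5.21 and -5.86 in NMBA+Alpha-T rats and -1.01, -3.22, -3.07, -1.12 and -2.92 in Control rats. Rat 3 alone lay in the Control range, and without it the difference of -2.52 (adjusted p = 0.0961) was -3.39 and passed the test. Heat shock genes gave 0 of 10 (2 higher unadjusted) and a median of 0.07.

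None of the 14 cell type lists, the epithelial one included, held a called gene (limma). At an unadjusted p below 0.05, gland and columnar markers had 3 lower, B and plasma cell markers 2 lower, macrophage, smooth muscle and skeletal muscle markers 1 lower each, and neutrophil markers 1 higher. The fibroblast and matrix list had 1 of 14 members positive (median -0.25), the endothelial list 1 of 10 (median -0.34), the smooth muscle list 0 of 9 (median -0.28) and the macrophage list 2 of 13 (median -0.20). Over all genes, 52.1% of differences were positive and 13.6% had an unadjusted p below 0.05. For NMBA against Control the medians of these 4 lists were -0.55, -0.3, -0.11 and 0.05. In list means the NMBA+Alpha-T rats ranged from -0.71 to 0.49 and Control rats from 0.29 to 0.56 for fibroblasts, and for endothelium NMBA+Alpha-T rats ranged from -0.76 to 0.33 and Control rats from 0.21 to 0.38. Mast cell markers had a median of -0.24 and list means from -1.35 to 1.07 in NMBA+Alpha-T and 0.25 to 1.14 in Control rats. Medians were -0.36 for nerve and Schwann cell, -0.57 for adipocyte, -0.06 for Langerhans and dendritic cell, -0.20 for neutrophil, -0.15 for B and plasma cell, -0.04 for skeletal muscle, -0.08 for blood cell and -0.04 for epithelial markers. Submucosal gland and columnar markers had the lowest median, -1.69, with 0 of 9 positive, and for NMBA against Control their median was -2.13. Their list means overlapped, from -2.16 to 1.32 in NMBA+Alpha-T, -2.06 to 1.07 in NMBA and -1.71 to 3.5 in Control rats. Bpifb1, a secreted protein of mucous glands, was at -5.61, -6.26, -7.18, -6.59 and -4.39 in NMBA+Alpha-T rats and 1.34, -5.87, 4.11, -3.44 and -3.15 in Control rats, and Agr2, a mucin-folding protein, averaged -4.69 ± 3.31 in NMBA+Alpha-T and -1.5 ± 2.87 in Control rats. The difference of Bpifb1 was -4.60 ± 2.07 (adjusted p = 0.329). The part of these cell types in the called genes was not tested.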

How the data were processed

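Esophageal epithelium RNA of 25 rats in 5 groups was hybridised with a single dye (Cy3) to Agilent rat arrays on 4 slides. The deposited scanner files hold, per the file headers, spot intensities processed by Agilent Feature Extraction 11.5.1.1 (background-subtracted processed signal); version 10.7 is the one in the submitters' processing notes. The authors' deposited value table holds log2 values scaled to each array's 75th percentile, which correlated with the same computation on the scanner signals at 1.

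Control and outlier spots were left out and spots of a probe averaged. The log2 processed signal minus the array's 75th percentile was fitted with limma 3.58.1 (R 4.3.3) as group means of all 25 arrays (20 residual degrees of freedom), two-sided, with Benjamini-Hochberg adjustment over 12343 genes and a threshold of 0.05. Probes had to be well above background on a minimum of 5 arrays, and the brightest such probe stood for its gene; 2035 genes had several kept probes. The number of arrays limits the precision. Gene symbols are RefSeq's, matched through the transcript identifier given for each probe. Of 30367 probes, 18355 matched 1 gene symbol and 12012 none.

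Genes were named by rule: the 10 largest rises and falls among called genes without overlap, called members of gene lists or else up to 2 members by size, the largest changes of NMBA against Control, genes also called against NMBA in the same direction, and some fixed genes. Of the genes this rule picks, a single result is not reported here. Genes named otherwise are marked as chosen after their values were seen. The members and lists were chosen with earlier results of these data known. Slide, background correction, scaling, filter, probe summary, fit, rat number as a block and left-out rats were varied. The fit was tested on simulated data. Promoter windows are RefSeq's (GRCr8), found for 12 of 13 genes looked up; Isg15 is not among them.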

Additional observations from a re-analysis of the deposited data

Results flagged for a closer look

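Of 304 groups of 5 rats examined (each named gene or list in NMBA+Alpha-T and in Control), 24 held 1 rat whose gap to its nearest neighbour was over Dixon's limit; chance alone flags about 1 in 20 groups. Values are levels (log2 signal minus the 75th percentile), or list means of centred levels.

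In NMBA+Alpha-T rats, rat 3 was high for the clock repressor gene Nr1d1 (-1.33, others -5.99 to -5.21) and for the circadian list (0.62, others -0.12 to 0.02), and for Btc (-5.65). Rat 4 was low for the macrophage gene Adgre1 (-3.47, others -2.51 to -2.33), for the matrix gene Fbn1 (-0.07, others 0.98 to 1.32) and for the endothelial list (-0.76, others 0.06 to 0.33). Rat 1 was low for Apex1 (-0.27, others 2.02 to 2.27). Rat 2 was low for Atp13a5 (-5.25), Ptger4 (-5.64) and Trib1 (-4.88), and rat 5 was high for Pdk4 (-0.83, others -3.46 to -2.77).

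In Control rats, rat 1, the sole Control rat on slide 2, was low for Cxcl11 (-5.76), Acta2 (2.53), Krt13 (4.67), Tp63 (3.90) and Cdkn1a (1.1) and high for Trib1 (-4.58). Rat 2 was low for Klk1c8 (-6.28), Phactr3 (-5.37) and Ccnd1 (1.82) and high for the eicosanoid list (0.28). Rat 3 was high for the mast cell list (1.14). Rat 4 was high for the p53 and DNA damage list (-0.11) and low for the macrophage list (0.03).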

How the results depend on the processing

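Counts of called genes are given as all, higher and lower (84, 65 and 19 as reported). They were 177, 138 and 39 with normexp background correction on median signals (chosen after seeing the data, because the planned correction on mean signals could not be run without that column), 118, 85 and 33 with quantile normalization, 239, 159 and 80 with slide as a random block (consensus correlation -0.0253), 4, 4 and 0 with slide as a fixed block (limma; 1488 genes at an unadjusted p below 0.05), and 6, 5 and 1 with only the 10 arrays. Median scaling, the deposited table, both other filters, the mean of probes and a robust, trended fit gave 69 to 90. Leaving out 1 rat at a time gave 23 to 96 in all, 19 to 72 higher and 4 to 31 lower; the count was lowest without Control rat 4 (23), Control rat 5 (29) and NMBA+Alpha-T rat 1 (35), against 62 without NMBA+Alpha-T rat 4. All 84 genes kept their direction under every alternative in which they were tested. The alternatives reuse the arrays that gave the calls, so this is no independent support. The fixed block moved the median of all genes to 0.16, against 0.01, and the causes of these shifts were not tested. The array titles give rat numbers but state no pairing of animals. Correlations of same-numbered deviations ran from -0.31 to 0.53, and 2 of 5 rats correlated best with their own number. So few correlations cannot decide whether rat numbers pair the animals. With the rat number as a replicate block 37 genes were called, 26 higher and 11 lower. Of the 35 genes named as called, 21 kept the call there, 31 under normexp, 33 without a filter on dim probes, and all 35 under quantile normalization, median scaling and the deposited table. Called genes near background, such as Mybl1, Krt82 and Fgf21, have bounds or unsure folds, and 5 rats a group limit what small differences could pass.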

Other observations

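Several called genes outside the lists were read after their values were seen. Il18, which encodes an epithelial cytokine that primes lymphocytes, was at 1.59, 1.04, 1.38, 1.24 and 1.12 in NMBA+Alpha-T rats, 1.11, 0.99, 1.17, 1.54 and 1.35 in NMBA rats and 0.93, 0.64, 0.41, 0.26 and 0.53 in Control rats. It was 0.72 ± 0.14 above Control (limma, adjusted p = 0.0175), and 0.68 in NMBA rats. Notch1, the receptor that drives squamous differentiation, was at 2.38, 2.20, 2.01, 1.84 and 2.10 in NMBA+Alpha-T rats and 1.20, 1.43, 1.53, 1.19 and 1.08 in Control rats, a difference of 0.82 ± 0.18 (adjusted p = 0.0345), and 0.87 in NMBA rats. Its dimmer second probe differed by 0.96. Tnfrsf18, the T cell receptor GITR, was at -1.66 ± 0.31 in NMBA+Alpha-T, -1.23 ± 0.46 in NMBA and -2.59 ± 0.11 in Control rats (SD, n = 5 each), 0.93 above Control (limma, adjusted p = 0.0237). None of the 3 genes overlapped Control in NMBA+Alpha-T rats.

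With slide as a fixed block the differences were 0.36 for Il18, 1.25 for Notch1 and 0.92 for Tnfrsf18, and none passed the test. Calls were lost without 1 rat for Il18 (NMBA+Alpha-T 1, Control 4 or 5; 0.64 to 0.82), Tnfrsf18 (NMBA+Alpha-T 1 or 4, Control 4 or 5; 0.85 to 1.03) and Notch1 (NMBA+Alpha-T 1, 2 or 5, Control 1, 4 or 5; 0.75 to 0.88). Plpp1, a lipid phosphatase gene, was the sole gene called with the slide block (3.14, adjusted p = 0.000226) but not without it (adjusted p = 0.682).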
